A study of Mus musculus with 3 samples.

Results

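The genes described here are the C-type lectins and C-type lectin-like receptors of macrophages and dendritic cells. They were chosen by symbol, as a list of 34 mouse genes, of which 33 had a row among the 31053 genes of the deposited tables and 1 was not analysed here. Droplet-based transcriptomes were compared between 3 libraries of cells from ectopic tissue masses of CD1 mice, an outbred strain, taken at day 5 after an implant was placed. The first library came from implants that held Matrigel, a basement membrane gel, and nothing else. The second came from Matrigel with rhBMP2, recombinant human bone morphogenetic protein 2, in mice given a pre-immune control IgG, and the third (nAct Ab) from the same mixture in mice that received activin A neutralizing antibody by the systemic route. They are called the Matrigel, IgG and antibody libraries below. No IgG is named in the labels of the Matrigel mice, so in the first comparison BMP2 cannot be told apart from IgG, and the sources used here do not say how many animals a library came from. The comparisons ask how these receptors differ between BMP2 and carrier implants, and, within BMP2 implants, between mice with and without activin A neutralization.

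C-type lectins are named for a fold that in many of them binds sugars in the presence of calcium, although several members bind proteins or lipids instead. Some take up glycoproteins and cell debris (the mannose receptor, the DC-SIGN family and the galactose-binding lectins), some signal for activation through the adaptors Fcer1g or Tyrobp and the kinase Syk (Clec4d, Clec4e, Clec4n, Clec4b1, Clec5a), and some carry an inhibitory motif that recruits phosphatases (Clec4a2, Clec12a, Cd72, Klrb1b). Resident tissue macrophages are known for the uptake receptors, while Clec4d and Clec4e are known as receptors for mycobacterial glycolipids.

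The genes lie mostly in clusters. On GRCm38 (the build named mm10 in the submitters' processing notes), 18 of the 34 are on chromosome 6 and the 7 Cd209 genes are on chromosome 8. Clec4n (chr6:123229843-123247021, plus strand), Clec4d (chr6:123262111-123275265, plus) and Clec4e (chr6:123281789-123289870, minus) are neighbours, as are Clec10a and Mgl2 on chromosome 11. Sequences before the RefSeq starts of 4 genes are shown because these pairs went opposite ways in macrophages between BMP2 and carrier implants. Clec4d and its dimer partner Clec4e were higher in the IgG library, the latter only just past the ratio of 1.5. Cd209f and Cd209g, the closest copies on the list, were lower. Each stretch is RefSeq sequence of GRCm38.p6, read in the direction of the gene. It ends before the first exon base of the gene's coding transcripts within the 250 bases before the RefSeq start. The stretches are chr6:123261857-123262106 for Clec4d (plus strand), chr6:123289872-123290121 for Clec4e (minus), chr8:4105836-4106014 for Cd209f (minus) and chr8:4134486-4134651 for Cd209g (plus). The Cd209g stretch lies inside the annotated gene (chr8:4134098-4137707), not before it. Capitals mark matches on either strand to GAGGAA, the core of PU.1-type sites (also as TTCCTC), to TTGCNNAA, a C/EBP-type motif, or to TGANTCA, the AP-1 motif.
Clec4d: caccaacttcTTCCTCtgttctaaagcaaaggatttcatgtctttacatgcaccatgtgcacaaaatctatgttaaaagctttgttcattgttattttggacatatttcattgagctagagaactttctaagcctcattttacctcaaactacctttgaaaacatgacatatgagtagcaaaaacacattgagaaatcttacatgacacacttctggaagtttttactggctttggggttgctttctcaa
Clec4e: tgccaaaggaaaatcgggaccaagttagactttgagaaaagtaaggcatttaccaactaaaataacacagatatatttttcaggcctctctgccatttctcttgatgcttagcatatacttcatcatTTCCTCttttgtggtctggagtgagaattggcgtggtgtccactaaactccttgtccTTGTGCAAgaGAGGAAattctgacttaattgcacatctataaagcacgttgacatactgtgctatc
Cd209f: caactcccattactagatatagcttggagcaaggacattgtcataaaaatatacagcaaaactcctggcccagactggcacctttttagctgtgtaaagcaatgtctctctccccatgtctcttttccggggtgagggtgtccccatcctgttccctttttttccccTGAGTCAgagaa
Cd209g: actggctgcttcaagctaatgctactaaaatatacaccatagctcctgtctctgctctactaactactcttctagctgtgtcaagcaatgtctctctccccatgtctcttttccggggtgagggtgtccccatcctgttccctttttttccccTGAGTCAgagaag
Clec4d and Clec4e share no run longer than 8 bases in these windows. Cd209f and Cd209g are 83.6% identical over the 250 bases before their RefSeq starts, and share 1 run of 154 bases, 83 of them within the stretches printed here, that holds the same TGAGTCA, at 83 and 97 bases before the starts. Over 33 promoter entries of 29 listed genes, each searched over 250 bases, GAGGAA occurred in 18 (54.5%, against 23.2% of all 32851 RefSeq mouse promoters). TGANTCA occurred in 4 (12.1%, against 6.75%), those of Cd207, Cd209f, Cd209g and Clec12a, and TTGCNNAA in 5 (15.2%, against 9.56%). An ETS and IRF composite (GGAA and GAAA with 2 bases between them) occurred in 7 (21.2%, against 2.30%). These were entries of Cd209d, Cd209e, Clec2i, Clec4a1 and the gene not analysed here, some of them with more than 1 entry. An NF-κB motif (GGG and TTTCC with 2 bases between them) occurred in none (against 1.41%). Entries of the same gene can hold the same match, so these shares are of entries and not of genes. GAGGAA and the composite can overlap. A match is a description of letters, not a binding site or a cause.

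The libraries held 6065 to 9249 barcodes and 38163880 to 46317250 UMIs (molecular tags, each standing for 1 captured transcript), and 8542, 5674 and 5682 cells were kept from the Matrigel, IgG and antibody libraries. Pairs of libraries shared 7 to 19 barcodes. Macrophages were cells with under 1% of UMIs from Col1a1, Col1a2 and Col3a1 and at least 1 UMI of Csf1r or Adgre1, outside the dendritic-type clusters. There were 5504, 2848 and 2789 of them, with medians of 3062, 3496 and 4612 UMIs, and 10, 10 and 11 of 11 macrophage markers were detected in over 25% of these cells. Cells that fell in clusters of other named types made up 0.273%, 1.69% and 2.40% of them. Levels are CPM: a gene's UMIs summed over the cells of a population and scaled to a common total. Because the 3′ chemistry counts 1 end per transcript, they do not depend on gene length. With 1 library per group there is no replicate and no test, and the 95% intervals cover counting error only, not differences between animals. A gene counts as measured where either library of a comparison has 10 UMIs or more, and as higher or lower where its levels differ 1.5-fold or more. Both comparisons use the IgG library, so they are not independent.

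In macrophages, 28 listed genes were measured between the IgG and Matrigel libraries. Of these, 11 were higher, against 12.6% of 13063 measured genes, and 7 were lower, against 13.4%. Between the antibody and IgG libraries 29 were measured, of which 3 were higher, against 7.12% of 12729 genes, and 10 were lower, against 12.4%. The median log2 ratio of the listed genes was 0.08 in the first comparison, beside 0.0024 over all genes, and -0.30 in the second, beside -0.13. The shift of all genes in the second comparison goes with the scaling: by TMM factors, which move every log2 ratio of the antibody over the IgG library by 0.13, 7 of the 10 stayed lower, and Cd209f, Cd209g and Klrb1b did not. The list was therefore spread to both sides in the first comparison, and lay mostly on the lower side in the second.

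**Figure D1:**
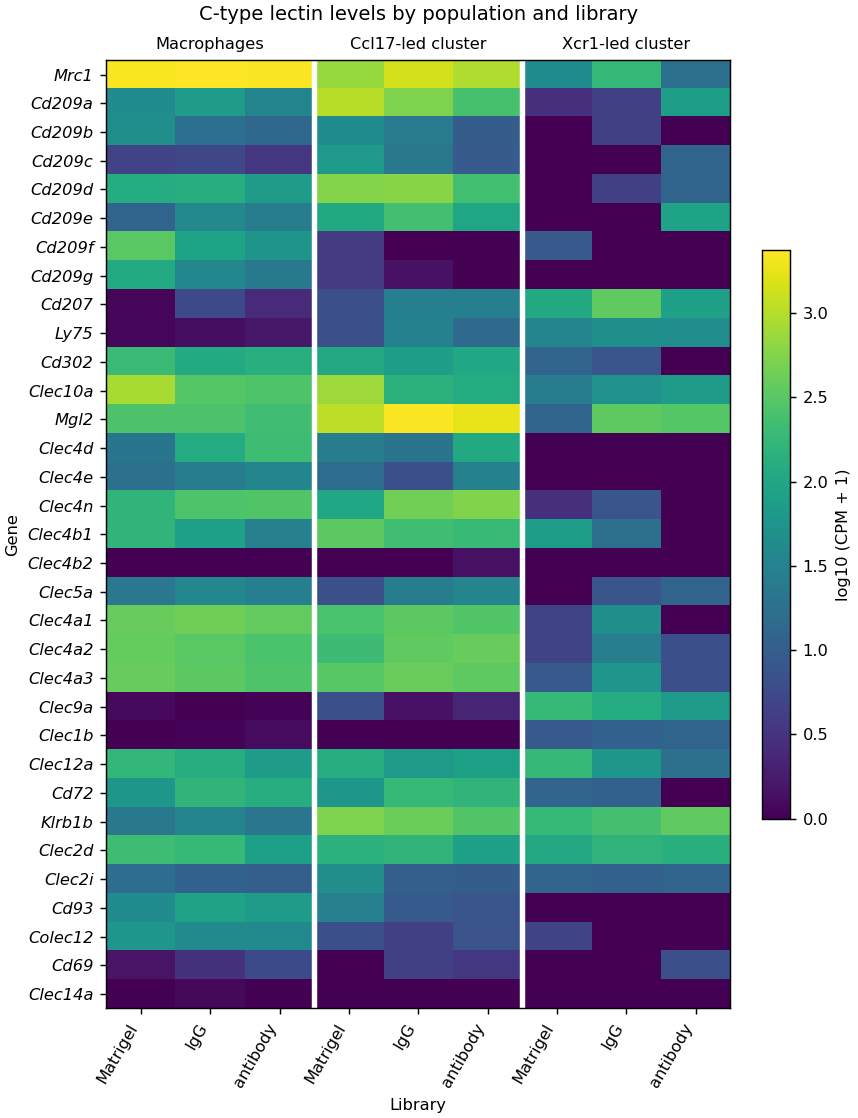
Levels of the 33 genes as log10(CPM + 1) in colour, with 1 row per gene and 1 column per library, for macrophages, the Ccl17-led cluster and the Xcr1-led cluster. Mrc1 was the highest in macrophages of every library (2179, 2367 and 2246 CPM), Mgl2 the highest in the Ccl17-led cluster (1093, 2292 and 1830 CPM), and Cd209f and Cd209g had at most 1 UMI per library in the Ccl17-led cluster.

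Among the uptake receptors, Mrc1, the mannose receptor that clears glycoproteins and collagen fragments, stood at 2179, 2367 and 2246 CPM in the Matrigel, IgG and antibody libraries. The libraries were close, with ratios of 1.09 [1.07 to 1.10] and 0.949. The share of macrophages with an Mrc1 UMI was 91.8%, 77.8% and 80.5%. After thinning each cell to 1000 UMIs it was 77.6%, 62.9% and 62.0%, against 6.67%, 2.51% and 1.83% of T and NK cells of the same libraries, a type that should lack it. The share was thus highest in the Matrigel library while the summed level was not.

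The Cd209 genes, the mouse relatives of the DC-SIGN receptor for mannose and fucose glycans, differed in opposite directions. Cd209f stood at 324, 88.9 and 55.5 CPM, 3.65-fold lower [3.42 to 3.90] in the IgG than in the Matrigel library and at a ratio of 0.624 [0.570 to 0.684] in the antibody over the IgG library. The Matrigel library was far above both BMP2 libraries. Its near copy Cd209g followed at 113, 36.1 and 22.1 CPM (0.318 [0.286 to 0.353], then 0.611 [0.529 to 0.706]). Cd209b, the receptor known from marginal zone macrophages as SIGN-R1, stood at 46.9, 16.3 and 12.2 CPM, with a ratio of 0.347 [0.296 to 0.406] in the first comparison and none called in the second. By contrast Cd209e stood at 11.4, 37.5 and 25.04 CPM, 3.29 times [2.79 to 3.89] as high in the IgG as in the Matrigel library. Cd209a, the family member also known from monocyte-derived dendritic cells, stood at 41.8, 73.3 and 31.9 CPM. It was highest in the IgG library, at ratios of 1.75 [1.59 to 1.94] and 0.434 [0.388 to 0.486]. Cd209d had 121 and 125 CPM in the Matrigel and IgG libraries and 71.9 CPM in the antibody library (0.578 [0.534 to 0.625]). Cd209c was low throughout, at 3.89, 4.34 and 2.47 CPM. In the antibody library all 7 Cd209 genes had lower levels than in the IgG library, 5 of them past the ratio of 1.5 (Cd209f and Cd209g no longer so under TMM scaling).

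Cd302, Cd207 and Ly75 were less abundant than Mrc1. Cd302, a receptor linked to endocytosis and migration, stood at 199, 114 and 130.1 CPM, lower in the IgG than in the Matrigel library (0.574 [0.539 to 0.611]). Mesenchymal cells carried Cd302 at 137, 80.2 and 105 CPM, in the same order of libraries, and 58.0%, 37.4% and 54.8% of all its UMIs lay in macrophages. Cd207, langerin, had 3, 54 and 23 UMIs in all macrophages, and Ly75, DEC-205, had 3, 4 and 10. Both are receptors of dendritic cells, and their macrophage levels stayed under 5 CPM in all libraries.

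The pair of galactose-binding lectins on chromosome 11 parted. Clec10a, which binds terminal galactose and N-acetylgalactosamine, stood at 854, 300.5 and 278.5 CPM. It was 2.84-fold lower [2.74 to 2.95] in the IgG than in the Matrigel library, and the antibody library was close to the IgG library (0.927 [0.886 to 0.969]). Its neighbour Mgl2 stood at 271, 273 and 221 CPM, a ratio of 1.01 [0.963 to 1.05] in the first comparison. The UMI ratio of Mgl2 to Clec10a was 0.317 [0.307 to 0.327] in the Matrigel library, 0.908 [0.865 to 0.952] in the IgG library and 0.793 [0.758 to 0.830] in the antibody library. A Clec10a UMI was found in 69.5%, 32.4% and 33.9% of macrophages, or 46.3%, 17.3% and 14.4% after thinning, against 0.952%, 0.358% and 0.108% of thinned T and NK cells. The Matrigel library was the highest by both measures.

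Among the receptors that signal through Fcer1g or Tyrobp, Clec4d differed most. This receptor, also called MCL, forms a heterodimer with Clec4e and stood at 19.5, 118 and 209 CPM. It was 6.05 times [5.39 to 6.81] as high in the IgG as in the Matrigel library, and 1.78 times [1.67 to 1.90] as high in the antibody as in the IgG library. The 3 libraries were thus ordered from Matrigel through IgG to antibody. The share of macrophages with a Clec4d UMI followed that order, at 5.29%, 25.9% and 44.2%, or 2.05%, 12.7% and 17.7% after thinning, where T and NK cells had 0%, 0.358% and 0.323%. Clec4e, Mincle, which senses mycobacterial cord factor and products of dead cells, stood at 16.5, 25.7 and 34.3 CPM. It was in the same order with smaller steps, 1.56 times [1.33 to 1.84] and then 1.33 times [1.16 to 1.54]. The UMI ratio of Clec4d to Clec4e was 1.18, 4.58 and 6.11. Clec4n, Dectin-2, a receptor for fungal mannans, stood at 158, 278 and 287 CPM, higher in both BMP2 libraries (1.75 [1.67 to 1.84] for IgG over Matrigel) with a ratio of 1.03 between them. Neutrophils carry Clec4d and Clec4e as well, at 932 and 474 CPM in the 86 neutrophils of the IgG library. The summed level of the 6 neutrophil markers in macrophages was 40.9, 132 and 123 CPM, with none at 0. Without the cells that fell in clusters of other types, the Clec4d ratios were 6.05 and 1.78.

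The remaining activating receptors did not follow Clec4d. Clec4b1, the receptor DCAR, stood at 158, 83.5 and 28.9 CPM, a ratio of 0.529 [0.492 to 0.568] for IgG over Matrigel and 0.346 [0.309 to 0.388] for antibody over IgG. It was lower at each step, the reverse of Clec4d. Clec5a, MDL-1, which pairs with Tyrobp, stood at 20.8, 35.3 and 27.3 CPM and was highest in the IgG library (1.70 [1.48 to 1.95], then 0.775). Clec4b2 had no UMI in macrophages of any library, which allows up to 0.158, 0.251 and 0.195 CPM (3 counts per library).

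The Clec4a genes encode the DCIR group, of which Clec4a2 carries an inhibitory motif. Clec4a1 stood at 386, 432 and 368 CPM, Clec4a2 at 380.0, 321 and 262 CPM and Clec4a3 at 384, 330 and 278 CPM. None of the 3 passed the ratio of 1.5 in either comparison, with ratios from 0.816 to 1.12. Among the other inhibitory receptors, Clec12a, which binds uric acid crystals, stood at 169.9, 124 and 70.7 CPM and was lower in the antibody than in the IgG library (0.568 [0.525 to 0.615]). Cd72, a coreceptor best known from B cells that binds Sema4d, stood at 59.8, 159 and 126 CPM. It was 2.65 times [2.47 to 2.86] as high in the IgG as in the Matrigel library, and the antibody library lay between them.

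Klrb1b, NKR-P1B, is an inhibitory receptor whose ligand is encoded by another listed gene, Clec2d. Klrb1b stood at 21.2, 32.3 and 20.3 CPM (1.53 [1.32 to 1.76], then 0.628 [0.539 to 0.731]), highest in the IgG library. Its ligand Clec2d stood at 211, 180.5 and 79.2 CPM, with a ratio of 0.439 [0.409 to 0.471] for antibody over IgG. In macrophages both receptor and ligand were thus lower in the antibody than in the IgG library. Macrophages held 49.1%, 47.0% and 37.5% of all Clec2d UMIs. Mesenchymal cells had 200, 71.6 and 93.2 CPM of it, and T and NK cells 205, 240 and 197 CPM. Clec2i, a relative of Clec2d, had 15.3, 10.1 and 9.60 CPM, lower in the IgG than in the Matrigel library.

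Cd93, a lectin-like receptor known from early haematopoietic cells, endothelium and phagocytes, stood at 41.0, 86.0 and 73.3 CPM, higher in the IgG than in the Matrigel library (2.10 [1.91 to 2.30]). Colec12, a scavenger receptor with a collagen-like stalk, stood at 57.9, 38.7 and 39.9 CPM and missed the ratio of 1.5 narrowly (0.668). Mesenchymal cells also carried Colec12, at 70.1, 94.1 and 84.3 CPM. Cd69, an activation marker that retains lymphocytes in tissue, had 10, 25 and 74 UMIs in macrophages (0.526, 2.09 and 4.80 CPM). The T and NK cells of the same libraries had 328, 112 and 250 CPM of Cd69, and 5, 10 and 22 cells of T and NK clusters lay within the macrophage gate. Without cells of other named clusters Cd69 had 5, 15 and 39 UMIs, in the same order of libraries, and Ly75 had 3, 2 and 8, too few to count as measured, so that 2 and not 3 genes were higher in the antibody than in the IgG library. Clec1b, known from platelets, had 0, 1 and 4 UMIs, Clec9a had 4, 0 and 1, and the endothelial Clec14a had 0, 2 and 0.

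**Figure D2:**
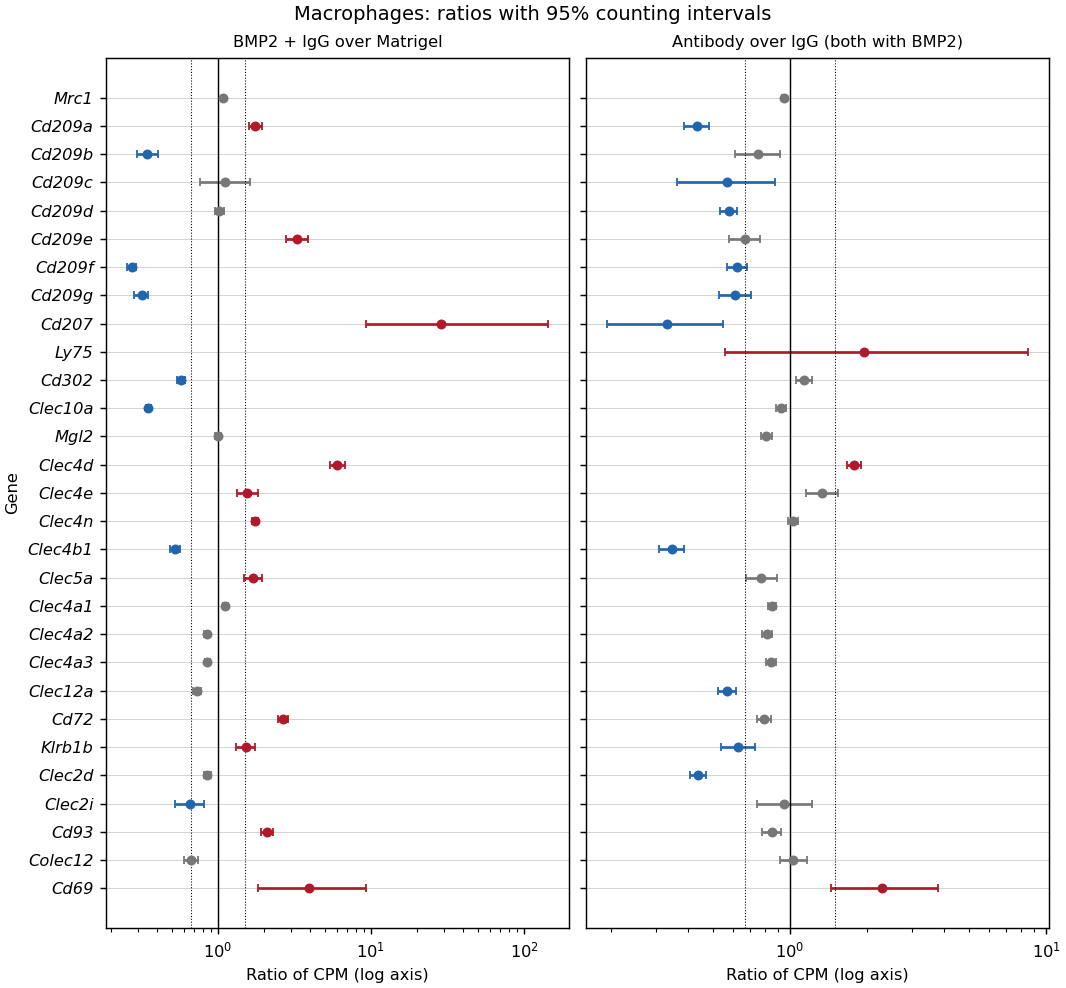
Ratios of CPM in macrophages with 95% counting intervals, on log axes, for IgG over Matrigel (left) and antibody over IgG (right), with dotted lines at a ratio of 1.5 either way and red and blue for higher and lower. Clec4d was higher in both panels (6.05 and 1.78), Clec4b1, Cd209f and Cd209g lower in both, and Cd209a and Klrb1b higher on the left and lower on the right.

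Few of the signalling partners of these receptors were called. Of 14 adaptors and kinases of activating lectins, all measured, 1 was higher in the IgG than in the Matrigel library, the kinase gene Src (2.47, 17.0 and 11.6 CPM), and none was lower, beside 12.6% and 13.4% of all genes. In the antibody against the IgG library, where 7.12% of all genes were higher and 12.4% lower, none of the 14 was called, nor any of the 3 inhibitory phosphatases (Ptpn6, Ptpn11, Inpp5d) in either comparison. Fcer1g, the shared adaptor of Clec4d, Clec4e and Clec4n, stood at 2086, 2289 and 2589 CPM. Tyrobp stood at 1865, 1493 and 1467 CPM, and Prkcd, a kinase downstream of Syk, at 252, 282 and 225 CPM. None of these 3 passed the ratio of 1.5 in either comparison.

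Of 12 cytokine and response genes known to be induced through these receptors, 11 were measured. Between IgG and Matrigel 4 were higher (Il1b, Il6, Ptgs2, Ccl3) and 2 lower (Cxcl1, Cxcl2), beside 12.6% and 13.4% of all genes. Between antibody and IgG 6 were higher (Il6, Cxcl1, Cxcl2, Ccl3, Ccl4, Tnf) and 2 lower (Il10, Ptgs2), beside 7.12% and 12.4%. Their median log2 ratios were 0.52 and 0.61, beside 0.0024 and -0.13 over all genes. The neutrophil chemoattractant Cxcl2 stood at 236, 51.5 and 209 CPM, lowest in the IgG library (4.59-fold lower [4.22 to 5.01], then a ratio of 4.07 [3.73 to 4.44]). Il1b stood at 46.5, 153 and 166 CPM, higher in both BMP2 libraries (3.28 [3.03 to 3.56]). Ccl3 stood at 30.2, 46.9 and 101 CPM, higher at each step (1.56 [1.38 to 1.75], then 2.15 [1.95 to 2.37]).

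Of 10 known ligands and partners, 9 were measured. Between IgG and Matrigel 4 were higher (Pdpn, Igfbp7, Klrb1b, Mmrn2) and none lower, beside 12.6% and 13.4% of all genes. Between antibody and IgG 1 was higher (Pdpn) and 5 were lower (Igfbp7, Klrb1b, Sf3b3, Mmrn2, Sema4d), beside 7.12% and 12.4%. Klrb1b is itself a listed gene and is counted there as well. The summed level of the mesenchymal markers in macrophages was 541, 685 and 189 CPM, and the part of mesenchymal transcripts in these calls was not tested. Pdpn, podoplanin, the ligand of Clec1b, stood at 2.10, 49.9 and 76.5 CPM in macrophages, 23.7 times [17.2 to 33.6] as high in the IgG as in the Matrigel library. Mesenchymal cells had 138, 51.3 and 115 CPM of Pdpn, in a different order of libraries. Of 20 other lectins outside the list, 14 were measured between IgG and Matrigel (4 higher, 4 lower) and 13 between antibody and IgG (1 higher, 5 lower), to be read beside the same shares of all genes. Lgals3, galectin-3, was the abundant one among those higher, at 431, 1233 and 1374 CPM, while Siglec1, a sialic acid receptor of resident macrophages, was lower in the IgG library, at 64.9, 35.2 and 30.9 CPM.

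Macrophages were then divided by detection of Lyve1, a hyaluronan receptor of perivascular resident macrophages, Ear2, a ribonuclease gene, Arg1, arginase, and Hopx, a homeodomain cofactor. Cells with a UMI of exactly 1 of the 4 numbered 972, 121 and 129 for Lyve1, 505, 85 and 31 for Ear2, 223, 920 and 857 for Arg1 and 258, 128 and 231 for Hopx. Another 2792, 1133 and 578 cells had none, and 754, 461 and 963 had several. The makeup differed between libraries. A Lyve1 UMI was found in 20.9%, 6.46% and 17.5% of macrophages and an Arg1 UMI in 7.14%, 45.2% and 62.5%, and cells with Lyve1 alone were 17.7%, 4.25% and 4.63%. The antibody library was thus near the Matrigel library in cells with any Lyve1 UMI and near the IgG library in cells with Lyve1 alone. Marker detection moves with depth, and the 31 Ear2 cells of the antibody library give wide intervals.

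Of 25 genes with at least 50 CPM in 1 of the populations, 17 had their highest level in the same subset in all 3 libraries. Lyve1 cells held the highest level of 9 (Clec2d, Clec10a, Cd209b, Cd209d, Cd209e, Cd209f, Cd209g, Cd302, Colec12), Ear2 cells that of 6 (Clec4a2, Clec4b1, Clec12a, Mgl2, Cd209a, Klrb1b) and Arg1 cells that of 2 (Clec4d, Cd93). When cells could belong to several subsets, 12 of these 17 kept their subset. In the antibody library the gap to the next subset was small for several of them, 1.02-fold for Cd209e and 1.10-fold for Clec2d. In the IgG library Clec12a stood at 169 CPM [132 to 212] in Ear2 cells and 166.5 CPM [134 to 205] in Hopx cells. Its intervals in these subsets overlapped in every library, as did those of Klrb1b in the IgG and antibody libraries.

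Several uptake receptors, Cd209b, Cd209d, Cd209e, Cd209f, Cd209g, Cd302 and Clec10a among them, were highest in Lyve1 cells in all 3 libraries, while Mgl2 and Cd209a were highest in Ear2 cells. Mrc1 stood at 3353, 3951 and 3181 CPM in Lyve1 cells and at 1622, 3227 and 3322 CPM in Arg1 cells, so its highest subset differed in the antibody library. Cd209f stood at 803, 851 and 777 CPM in Lyve1 cells, a ratio of 1.06 [0.963 to 1.16] for IgG over Matrigel, against 16.3, 6.71 and 6.71 CPM in Arg1 cells. Among cells with Lyve1 alone the 3 libraries were close, while over all macrophages the Matrigel library was 3.65-fold above the IgG library. This closeness did not extend to cells with Lyve1 and Arg1 or Hopx, whose levels are given below. Lyve1-only cells held 52.8%, 47.7% and 59.9% of all macrophage UMIs of Cd209f. Cd209g (258, 310 and 229 CPM in Lyve1 cells), Cd209b (116, 168 and 144 CPM) and Cd302 (252, 243 and 225 CPM) were likewise not lower within Lyve1 cells in the IgG than in the Matrigel library by the ratio of 1.5. In Arg1 cells, however, Cd302 was lower in the IgG than in the Matrigel library (158, 77.9 and 116 CPM). It stood at 149, 99.5 and 83.4 CPM in Ear2 cells and at 126, 89.8 and 113 CPM in Hopx cells, with overlapping intervals for Matrigel and IgG. Clec10a stood at 1284, 1486 and 1774 CPM in Lyve1 cells (1.16 [1.08 to 1.24] for IgG over Matrigel). In Arg1 cells it was at 426, 109 and 187 CPM, 3.92-fold lower [3.33 to 4.61] in the IgG than in the Matrigel library, in Hopx cells at 314, 135 and 51.2 CPM, and in Ear2 cells at 439, 231 and 301 CPM. Clec10a was thus lower in the IgG than in the Matrigel library within Arg1, Hopx and Ear2 cells and not within Lyve1 cells, a difference between subsets that was not tested.

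Not all of these levels were even. Cd209d stood at 262, 841 and 457 CPM in Lyve1 cells, 3.21 times [2.88 to 3.58] as high in the IgG as in the Matrigel library, although over all macrophages those libraries had a ratio of 1.03. Cd209e (16.5, 114 and 47.1 CPM, 6.90 times [4.85 to 9.82]), Cd209a (33.5, 122 and 77.5 CPM, 3.65 times [2.71 to 4.89]) and Mgl2 (266, 541 and 521 CPM, 2.04 times [1.79 to 2.31]) were also higher there. Few cells carried much of these sums: in the IgG library 10 of 121 Lyve1 cells held 68.5% of the Cd209d UMIs, 88.2% of those of Cd209e and 78.1% of those of Cd209a. The share of Lyve1 cells with a Cd209d UMI was 24.7%, 30.6% and 26.4%, or 14.4%, 27.3% and 17.1% after thinning. In the antibody library the levels of Cd209d, Cd209e and Cd209a in these cells were lower than in the IgG library (0.544, 0.413 and 0.633). In all, 7 of 25 measured genes were higher in Lyve1 cells between IgG and Matrigel, against 9.9% of all genes, and 5 lower, against 21.2%. Between antibody and IgG 4 of 21 were higher, against 10.6%, and 5 lower, against 18.7%. Cells with both Lyve1 and Arg1 or Hopx numbered 122, 59 and 344. They had less Cd209f (346, 126 and 37.8 CPM) than cells with Lyve1 alone, and nearly even Mrc1 (2323, 2348 and 2774 CPM). Their Cd209f levels were not close between libraries, so the even Cd209f level holds for cells with Lyve1 alone.

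**Figure D3:**
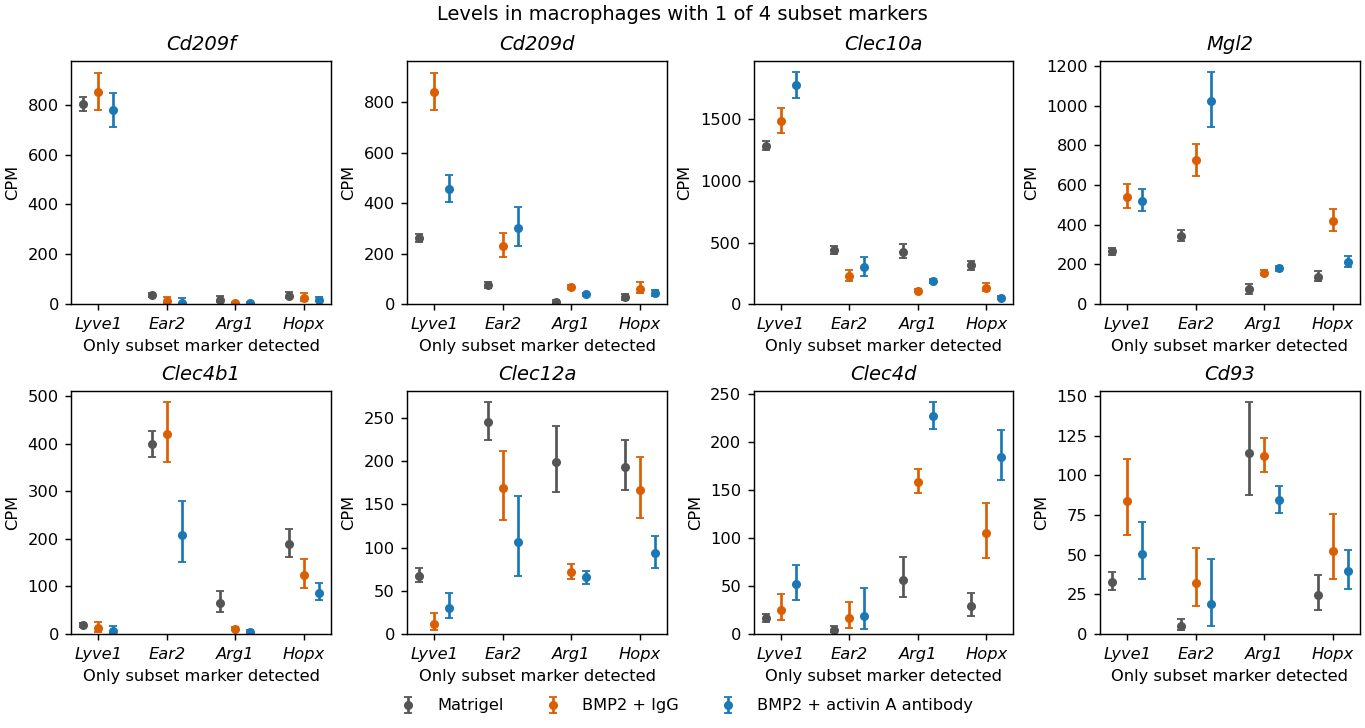
Levels in CPM (from 0) of 8 genes in macrophages with a single one of 4 subset markers, with 1 point per library and 95% counting intervals. Cd209f, Cd209d and Clec10a were highest in Lyve1 cells, Mgl2, Clec4b1 and Clec12a in Ear2 cells, and Clec4d and Cd93 in Arg1 cells, in each of the 3 libraries. For Clec12a the intervals of Ear2 and Hopx cells overlapped in every library.

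Ear2 cells carried Clec4b1 at 398, 421 and 208 CPM, from 21.01 to 41.9 times the level of the lowest subset. Within Ear2 cells its ratio was 1.06 [0.894 to 1.24] for IgG over Matrigel and 0.495 [0.349 to 0.690] for antibody over IgG. The gap between the IgG and antibody libraries was thus also seen within Ear2 cells, and the one between Matrigel and IgG was not. In other subsets Clec4b1 was lower in the IgG than in the Matrigel library. It stood at 65.2, 10.8 and 4.98 CPM in Arg1 cells and at 189, 123.5 and 86.9 CPM in Hopx cells. In Lyve1 cells it was at 19.0, 11.7 and 6.07 CPM (77, 7 and 4 UMIs), with overlapping intervals for Matrigel and IgG. Mgl2 stood at 345, 724 and 1024 CPM in these cells, and Klrb1b at 76.7, 120.3 and 78.8 CPM. In Lyve1 cells Klrb1b had 1 UMI in the Matrigel library or none in the others. In Ear2 cells 10 of 25 genes were higher between IgG and Matrigel (14.2% of all genes) and 4 lower (20.7%), and between antibody and IgG none of 18 was higher (11.1%) and 7 were lower (21.8%).

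Clec4d was highest in Arg1 cells, at 56.2, 159 and 227 CPM, and next in Hopx cells, at 28.9, 105 and 185 CPM. Its ratio for IgG over Matrigel was 2.83 [1.97 to 4.20] within Arg1 cells and 3.62 [2.24 to 6.01] within Hopx cells, both smaller than the 6.05 over all macrophages. For antibody over IgG it was 1.43 [1.30 to 1.59] and 1.76 [1.31 to 2.42]. In Ear2 cells Clec4d stayed at 4.07, 16.2 and 18.5 CPM (8, 7 and 4 UMIs). The order of the levels was the same in all 4 subsets. In Ear2 cells, however, the intervals of the IgG and antibody libraries overlapped ([6.51 to 33.4] and [5.05 to 47.5] CPM), as they did in Lyve1 cells. Clec4n stood at 112, 265 and 356 CPM in Arg1 cells and at 66.8, 251 and 215 CPM in Hopx cells, and Mrc1 in Arg1 cells was 1.99 times [1.86 to 2.13] as high in the IgG as in the Matrigel library. Cd93 stood at 114, 112 and 84.2 CPM in Arg1 cells, so its difference over all macrophages was not seen there. In the other subsets its level was higher in the IgG than in the Matrigel library. It stood at 32.8, 83.7 and 50.1 CPM in Lyve1 cells and at 5.08, 32.4 and 18.5 CPM (10, 14 and 4 UMIs) in Ear2 cells. In Hopx cells it was at 24.5, 52.4 and 39.3 CPM, with overlapping intervals for Matrigel and IgG.

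In Arg1 cells 12 of 26 genes were higher between IgG and Matrigel, against 24.7% of all genes, and 9 lower, against 14.2%. Between antibody and IgG 4 of 28 were higher (6.7%) and 5 lower (13.5%). In Hopx cells 11 of 23 were higher between IgG and Matrigel (16.8%) and 3 lower (14.6%), and between antibody and IgG 2 of 22 were higher (13.4%) and 7 lower (13.9%). In cells with none of the 4 markers 7 of 28 genes were higher between IgG and Matrigel (12.3%) and 7 lower (13.4%), and between antibody and IgG 3 of 28 were higher (7.74%) and 10 lower (11.8%). The subsets are ranges of marker detection and not cell types.

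**Figure D4:**
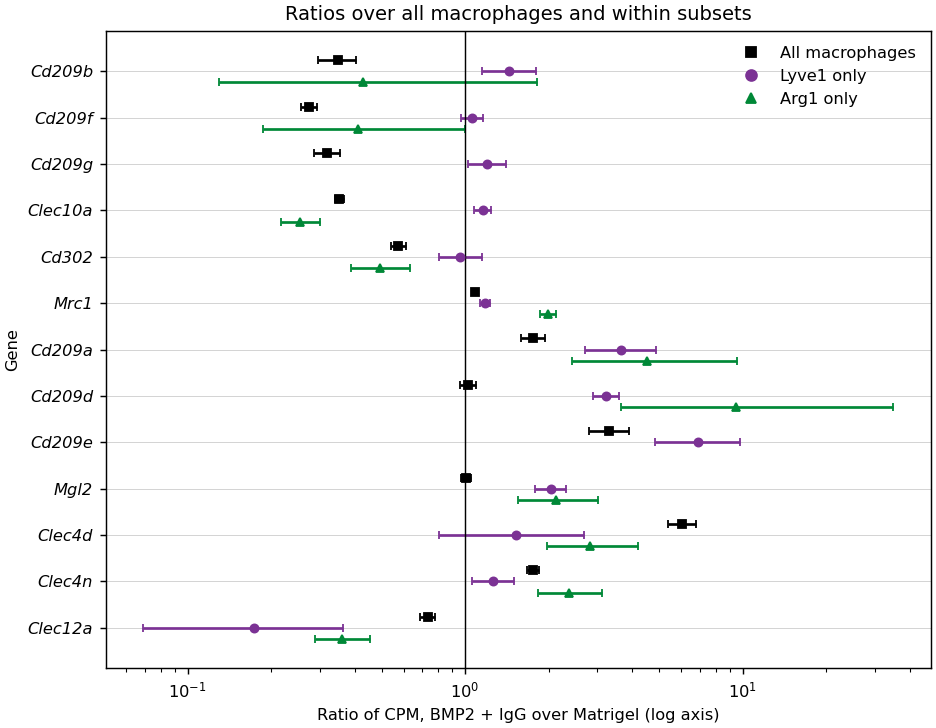
Ratio of CPM, IgG over Matrigel, on a log axis with 95% counting intervals for 13 genes over all macrophages (squares), in Lyve1-only cells (circles) and in Arg1-only cells (triangles), leaving out ratios with 3 or fewer UMIs. Cd209b, Cd209f, Cd209g and Clec10a lay left of 1 over all macrophages and right of 1 in Lyve1 cells, where Cd209a, Cd209d, Cd209e and Mgl2 lay between 2.04 and 6.90.

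Clusters of macrophages, made without the listed genes among the variable genes, held the same receptors together. A cluster led by Fcna, Retnla, Lyve1 and Folr2 (707, 94 and 170 cells) had Cd209f at 970.4, 1025 and 948 CPM and Clec10a at 1422, 2117 and 2394 CPM. A cluster led by Ear2 and Lyz1 (1346, 165 and 148 cells) had Clec4b1 at 407, 531 and 250 CPM. Clec4d stood at 245, 270 and 296 CPM in a cluster led by Kazald1, Hopx and Arg1, which held 52, 311 and 836 cells. In a cluster led by Syngr1, Cx3cr1 and Trem2 (64, 917 and 765 cells) Clec4d was at 60.1, 260 and 367 CPM and Clec4n at 236, 386 and 509 CPM. Within the Kazald1-led cluster the libraries were thus close for Clec4d, and within the Syngr1-led cluster they were not. Cd72 was highest in a cluster whose leading genes were haemoglobin, Cxcl13 and Apoe (163, 521 and 513 CPM). The haemoglobin gene Hbb-bs, which macrophages do not make, stood at 76.7, 249 and 905 CPM over all macrophages, and its part in the Cd72 values was not tested.

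Outside the plasmacytoid cells, 2 clusters were classed as dendritic by the markers. The Xcr1-led cluster (138, 43 and 21 cells) had all 11 markers of type 1 dendritic cells, the cells that present dead-cell antigen to CD8 T cells. The other, led by Ccl17, Mmp12 and Ccl22 (90, 314 and 276 cells), held macrophage genes as well, and not to the same extent in each library. Csf1r was found in 48.9%, 81.2% and 88.0% of its cells, Fcgr1 in 21.1%, 58.3% and 59.1% and C1qa in 12.2%, 41.7% and 34.8%. Flt3, a dendritic cell receptor, was found in 23.3%, 13.1% and 8.70%, and Ccl17 itself in 4.44%, 24.2% and 22.5%. These values go against a plain dendritic name, so the cluster is called by its leading gene, and its ratios between IgG and Matrigel compare cells of unlike makeup. Over both clusters together, 11 of 26 genes were higher between IgG and Matrigel, against 22.6% of 9785 genes, and 5 lower, against 15.3%. Between antibody and IgG 3 of 27 were higher, against 7.8% of 10096 genes, and 9 lower, against 13.3%. Over both clusters, 7 called ratios (of Clec9a, Clec10a, Cd93, Clec4e, Cd209a, Cd209d and Cd209e, 1 each) turned in direction when the cells were taken from finer clusters at resolution 2 (1197, 197 and 152 cells) or from the Xcr1-led and a Ccr7-led cluster, so these values hold for the cells named. Because the 2 clusters had different shares of these cells in each library, they are given apart.

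In the Ccl17-led cluster 9 of 25 genes were higher between IgG and Matrigel (21.6% of all genes) and 8 lower (18.5%), and between antibody and IgG 3 of 26 were higher (8.13%) and 7 lower (14.1%). The median log2 ratios were 0.08 and -0.23, beside -0.12 and -0.10 over all genes. Mgl2 was the most abundant listed gene, at 1093, 2292 and 1830 CPM, and was higher in the IgG than in the Matrigel library (2.10 [1.89 to 2.34]). Clec10a stood at 758, 147 and 117 CPM, 5.16-fold lower [4.36 to 6.11]. The UMI ratio of Mgl2 to Clec10a was thus 1.44, 15.6 and 15.6, and the pair parted in the same direction as in macrophages.

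Cd209a stood at 1021, 528 and 245 CPM in this cluster, lower at each step (0.517 [0.458 to 0.584], then 0.464 [0.419 to 0.514]). Cd209d stood at 556, 591 and 225 CPM and Cd209e at 112, 231 and 95.4 CPM, both lower in the antibody than in the IgG library (0.381 [0.344 to 0.422] and 0.412 [0.351 to 0.484]). Cd209f and Cd209g had at most 1 UMI per library here. Cd209b stood at 43.2, 22.9 and 8.86 CPM here (15, 48 and 21 UMIs), beside 46.9, 16.3 and 12.2 CPM in macrophages. Cd209c stood at 63.4, 21.5 and 8.44 CPM, beside 3.89, 4.34 and 2.47 CPM in macrophages. The family was thus split, with Cd209f and Cd209g in macrophages and the other members in both populations. Klrb1b stood at 519, 407 and 283 CPM, above its macrophage level in every library. Clec4n stood at 101, 456 and 547 CPM, 4.52 times [3.23 to 6.53] as high in the IgG as in the Matrigel library. Clec4d had 9, 39 and 261 UMIs (25.9, 18.6 and 110.1 CPM), with a ratio of 0.717 [0.342 to 1.68] for IgG over Matrigel and 5.92 [4.22 to 8.52] for antibody over IgG. Clec4e had 5, 12 and 69 UMIs and a ratio of 5.09 [2.73 to 10.3] for antibody over IgG. Clec4d and Clec4e were thus both highest in the antibody library, with no higher level in the IgG than in the Matrigel library. The median depth of these cells was 3742, 5668 and 7319 UMIs, in the same order of libraries.

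In the Xcr1-led cluster 6 of 12 genes were higher between IgG and Matrigel (14.8% of all genes) and 3 lower (20.7%), and between antibody and IgG 2 of 13 were higher (13% of all genes) and 6 lower (24.2%). Macrophage genes were found in some of its cells as well. Csf1r was found in 2.90%, 13.95% and 14.3%, Fcgr1 in 0%, 11.6% and 19.05% and C1qa in 5.07%, 9.30% and 4.76%. In the IgG library 8 of the 43 cells held all 52 Mrc1 UMIs, and 5 held all 17 of Clec4a3. These ratios thus also compare cells of unlike makeup, and the part of such cells in the calls was not tested. Clec9a, the receptor for actin filaments exposed on dead cells, stood at 184, 117 and 66.9 CPM (95, 35 and 12 UMIs). Its ratios were 0.640 [0.421 to 0.951] and 0.569 [0.269 to 1.12], so the second interval includes 1. Cd207, langerin, stood at 110.2, 359 and 83.6 CPM and was highest in the IgG library (3.26 [2.34 to 4.58], then 0.233 [0.126 to 0.401]). Of its 107 UMIs in the IgG library 92.5% lay in 10 of the 43 cells, and the share of cells with a Cd207 UMI was 29.0%, 34.9% and 23.8%, or 10.1%, 9.30% and 0% after thinning. The higher summed level therefore rested on few cells. Clec12a had 91, 18 and 3 UMIs and was lower in the IgG than in the Matrigel library (0.343 [0.195 to 0.574]). Mgl2 had 6, 103 and 54 UMIs, and its level in the BMP2 libraries, 345 and 301 CPM, was below that of the Ccl17-led cluster. Clec4d and Clec4e had no UMI here in any library, which allows up to 5.80, 10.1 and 16.7 CPM of each.

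Plasmacytoid dendritic cells, known as producers of type I interferon, numbered 29, 32 and 13. Their Cd209d level was 1264, 857 and 264 CPM (82, 109 and 15 UMIs), lowest in the antibody library. It was above that of the Ccl17-led cluster in the Matrigel and IgG libraries, while in the antibody library the intervals overlapped. Clec10a stood at 570.3, 527 and 686 CPM and Cd209a at 555, 369 and 457 CPM, with overlapping intervals across the libraries.

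**Figure D5:**
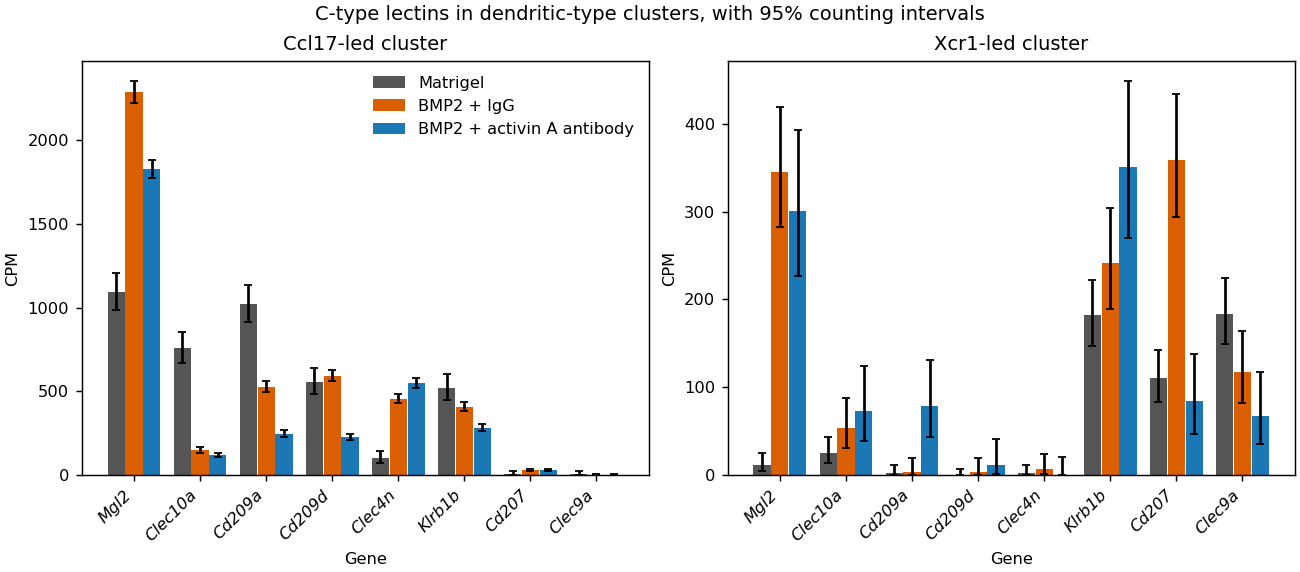
Levels in CPM (bars from 0, with 95% counting intervals) of 8 genes in the Ccl17-led cluster (left) and the Xcr1-led cluster (right), with 1 bar per library. Mgl2 was the highest in the left panel (1093, 2292 and 1830 CPM), and Clec9a and Cd207 were seen mainly in the right panel.

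Close gene copies limit some of these values. Of 561 pairs of listed genes, 18 had coding sequences at least 70% identical, against a median of 56.4%. Cd209f and Cd209g were 89.2% identical over the coding sequence and 83.5% over the last 400 transcript bases, which the 3′ chemistry reads. Their UMI ratio was 2.86, 2.46 and 2.52 in macrophages, and reads that fit both genes equally could be divided or lost between them, so the values of each are uncertain. Clec10a and Mgl2 were 87.5% identical over the coding sequence but 27% over the last 400 bases, and Clec4a2 and Clec4a3 75.8% and 67.3%. Clec4b1 and Clec4b2 were 81.1% and 53.3% identical, and all their UMIs in macrophages were assigned to Clec4b1.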

How the data were processed

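The authors deposited raw UMI counts for each gene in each barcode, without normalization. Cell Ranger 3.0.2 and mm10 are named in the submitters' processing notes, and no source used here gives the annotation release. Cells were kept with 300 or more genes, 500 or more UMIs and no more than 15% mitochondrial UMIs, which removed 26, 107 and 146 barcodes. Scrublet's automatic threshold marked 2, 3 and 4 doublets, under 0.5% of cells, so the highest scores were removed at 0.8% per 1000 cells (681, 284 and 285 cells). The cells left had median depths of 3360, 4161 and 3556 UMIs.

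Clustering in scanpy 1.11.5 used 3000 variable genes without the listed genes, 30 components, 15 neighbours, Leiden resolution 1 and seed 1. Clusters were named from marker lists, with at least 3 markers in 25% of cells. Raw UMIs were summed per population and library (numpy 2.4.6). Levels have exact Poisson intervals, ratios exact conditional binomial intervals and shares exact Clopper-Pearson intervals, all 95% (scipy 1.17.1). The ratio code was tested on simulated data. No p-value was computed, since each group has 1 library. Medians of log2 ratios add 1 UMI to each sum.

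Genes were given with values in all libraries if they had at least 50 CPM in macrophages, dendritic-type cells or a subset of at least 50 cells. In the partner lists the 3 most abundant genes and those called in both comparisons could be named; Src, Siglec1 and the other genes given there beyond these were named after their values were seen. The members and lists were chosen with earlier results of these data known. Gene coordinates and coding sequences are from GENCODE M21, promoters from RefSeq, and identities from global alignments in Biopython 1.88. Alternatives were TMM factors (edgeR 4.0.16), means over cells, doublets kept, other gates, resolution 2, other UMI minima and a ratio of 2.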

Additional observations from a re-analysis of the deposited data

Results flagged for a closer look

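Cd209a had opposite directions in 2 populations of the same libraries. Between the IgG and Matrigel libraries its ratio was 1.75 in macrophages and 0.517 in the Ccl17-led cluster, where the lower sum still held 354 UMIs. In macrophages the level went from 41.8 to 73.3 CPM, and in the Ccl17-led cluster from 1021 to 528 CPM. Cd93 did the same, with a ratio of 2.10 in macrophages and 0.281 in the Ccl17-led cluster, the latter from 10 UMIs in the Matrigel library and 17 in the IgG library. In both cases the difference between the populations was not tested, since each has 1 library per group. The makeup of the Ccl17-led cluster also differed between the Matrigel and IgG libraries. Csf1r was found in 48.9% and 81.2% of its cells and Flt3 in 23.3% and 13.1%, and the part of this in the ratios was not tested.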

How the results depend on the processing

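No paired analysis was possible because each group has 1 library and the labels give no replicate numbers. Across the alternatives, 323 ratios of single genes stayed within their counting interval, 166 moved outside it and 7 reversed. At a ratio of 2 in place of 1.5, macrophages had 6 higher and 4 lower genes between IgG and Matrigel (11 and 7 at 1.5) and 1 higher and 4 lower between antibody and IgG (3 and 10). With a minimum of 1 UMI, 5 genes were higher between antibody and IgG in macrophages. In dendritic-type cells between IgG and Matrigel, 17 were higher and 3 lower when cells were taken by a marker gate (11 and 5 by clusters). There 3 were lower at resolution 2, where the dendritic-type cells numbered 1197, 197 and 152 in place of 228, 357 and 297, 3 with a minimum of 25 UMIs and 9 with a minimum of 1 UMI. Taking the Xcr1-led cluster and a Ccr7-led cluster of resolution 2, a choice made after seeing the data, gave 3 lower. The reversed values were all of pooled dendritic-type cells. At resolution 2 the ratio for IgG over Matrigel became 1.33 for Clec9a and 3.16 for Cd93, and that for antibody over IgG 0.598 for Clec4e and 4.65 for Cd209e. With the Xcr1-led and Ccr7-led clusters, Clec10a became 2.03 for IgG over Matrigel, and Cd209a 5.73 and Cd209d 2.42 for antibody over IgG. These settings change which cells are counted, and the cause was not tested further. None of the alternatives run reversed a called ratio in macrophages among the 25 genes given with values, but TMM scaling and means over cells each left 7 in place of 10 genes lower between antibody and IgG. The limits are depth and design: 21 Xcr1-led and 31 Ear2 cells of the antibody library leave few UMIs per gene, and differences between animals were not measured.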
